A study of Homo sapiens with 4 samples.

Results

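IGF2BP2 binding was described on 10 genes of the actin and microtubule cytoskeleton in Jurkat cells, an established human T-cell acute lymphoblastic leukemia line. The study has 2 IGF2BP2 iRIP-seq libraries and 2 input libraries of the same line, with the anti-IGF2BP2 antibody in the iRIP libraries and no treatment or genetic change named in the labels, and the peak lists of the 2 iRIP libraries, called replicates 1 and 2, were used. In iRIP-seq, cells are crosslinked with UV light, the protein is immunoprecipitated, and the RNA bound to it is sequenced. The genes were ACTB and ACTG1 (actins), CFL1, PFN1 and TMSB10 (actin-binding proteins), TUBA1A, TUBA1B and TUBA1C (alpha-tubulins), and TUBB and TUBB4B (beta-tubulins). A member peak was a peak listed under the Ensembl identifier of one of these genes whose main region, the region that holds the largest share of its length, was coding sequence (CDS), UTR, noncoding exon or intron on the strand of the gene. This gave 62 of 145715 listed peaks in replicate 1 and 52 of 137934 in replicate 2 (mean 57 ± 7.07, SD, n = 2). All sense peaks, those on the strand of any gene, numbered 74237 and 77288. Nothing in the labels says that the libraries came from separate cultures, so the spread between them may be technical.

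IGF2BP2 is an RNA-binding protein that reads m6A and is known to stabilise mRNAs and to support their translation. Its paralogue IGF2BP1 is known for binding the zipcode in the 3′ UTR of ACTB mRNA, an element that localises this mRNA in the cell. Actin monomers polymerise into filaments, cofilin severs filaments, profilin loads monomers for growth, and beta-thymosins hold monomers back. Alpha- and beta-tubulin form the dimers from which microtubules are built.

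The height of a peak is a number of tags, and for peaks longer than a single bin of 50 nt it is the mean over the bins. Heights were not adjusted for depth, which is unknown, or for the abundance of each RNA, since input values were not analysed here. Listed heights start at 4 tags in the first library and at 5 in the other, so a peak of 4 tags could be listed in replicate 1 only. As a check of the label, 6 of 9 T-lineage markers had a sense peak in both libraries, with heights up to 30 tags. The share over 20056 protein-coding genes was 41.6%, so the count alone is a weak check. LAT, among the other T-lineage markers, had no sense peak that could be named, but 22 peaks of some gene or strand lay in its interval. Of 4 B-lineage, 4 myeloid, 3 erythroid and 3 epithelial markers, 2 (CSF1R and KRT8) had a peak in both, and no peak of these 14 markers was above 6 tags. The identifiers of all 10 genes lay at the RefSeq positions of these genes in GRCh38. In the authors' lists the models of some genes reach beyond the RefSeq interval, and 4 member peaks in replicate 1 and 5 in replicate 2 lay outside it.

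Bases 21 to 50 from the start of TMSB10 (RefSeq, GRCh38.p14) are shown as an example of sequence under a peak. Capitals mark GGAN, the letters named for the IGF2BP2 motif, where N is any base.
TMSB10, chr2:84905676-84905705, plus strand, under a peak of 5 tags in replicate 1: gagtgGGAGcaccaGGATctcgggctcgga
The stretch held 2 matches on the sense strand. Of all 35116 RefSeq start windows, 49.7% held a match in the same 30 bases, so a match is common and is a description only. The stretch had no peak in replicate 2.

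All 10 genes had a sense peak in each library, against a background of 41.6% of 20056 protein-coding genes with a sense peak in both. All 10 also had a peak mainly in an exon in both libraries (background 21.4%). In 7 genes, ACTB, ACTG1, PFN1, TMSB10, TUBA1B, TUBB and TUBB4B, some peak reached 10 tags in each library (background 3.71%). Overlapping peaks in the libraries were present in 8 genes (background 14.6%), and TUBA1A and TUBA1C were the exceptions. Both of the overlapping peaks reached 10 tags in 5 genes, ACTG1, PFN1, TMSB10, TUBA1B and TUBB4B (background 2.8%). The background counts genes that could not be named by position as having no peak. It takes in protein-coding genes at any RNA abundance, and neither it nor the counts were adjusted for abundance. The genes were chosen with earlier results of these data known, so these counts are descriptions without a test.

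Peaks on these genes lay mostly in exons. In replicate 1, 49 of 62 peaks (79.0%, 95% Wilson interval 67.4% to 87.3%) lay mainly in an exon, and in replicate 2, 40 of 52 (76.9%, 63.9% to 86.3%). Over all sense peaks the exonic shares were 30.8% and 37.6%, and over the peaks of 65 other cytoskeletal genes 49.2% and 54.0%. ACTB peaks were 50% and 40% exonic, counting intron peaks outside its RefSeq interval. TUBA1C, the longest of the genes at 46675 nt, had 4 of 6 and 1 of 2 peaks in introns. The intron peak of replicate 2 lay outside these 46675 nt. How much intron each gene has was not taken into account in these shares. CDS was the main region of 27 peaks (43.5%, 31.9% to 55.9%) in replicate 1 and of 26 peaks (50%, 36.9% to 63.1%) in replicate 2, a mean of 46.8% ± 4.56 (SD, n = 2). The background of CDS peaks among all sense peaks was 19.9% and 25.6%. These intervals cover counting error only, and peaks of a gene are not independent of each other. The 3′ UTR held 10 peaks (16.1%) in replicate 1 and 5 (9.62%) in replicate 2 (background 3.63% and 3.98%), and the 5′ UTR 5 (8.06%) and 6 (11.5%), against 2.77% and 3.32%. Noncoding exons held 7 (11.3%) and 3 (5.77%) peaks (background 4.46% and 4.75%), and the interval of replicate 2 (1.98% to 15.6%) held its background. Introns held 13 (21.0%) and 12 (23.1%), where all sense peaks had 69.2% and 62.4%.

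Among the families, beta-tubulin peaks lay in exons in 20 of 21 cases in replicate 1 and in 14 of 16 in replicate 2. For the actin-binding genes the numbers were 11 of 16 and 7 of 12, and introns held the other 5 and 5 peaks. Of these intron peaks, 1 in replicate 1 and 2 in replicate 2 were listed under CFL1 but lay outside its RefSeq interval. Mainly CDS were 7 of 14 and 6 of 10 alpha-tubulin peaks, and 2 of 11 and 6 of 14 actin peaks. Actin peaks had the most 3′ UTR positions, with 4 in replicate 1 and 3 in replicate 2. With so few peaks per family none of these differences was tested.

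Heights differed widely between the genes, and the tallest peak of each gene set the order. ACTB reached 19 tags in replicate 1 and 86 in replicate 2. PFN1 reached 31 and 43 tags, and ACTG1 11.5 and 45.4. In replicate 1 the peak of PFN1 was the highest of the 10 genes and in replicate 2 that of ACTB. CFL1 reached 8 and 26 tags, TMSB10 11 and 17.7, TUBA1B 10 and 14.5, TUBB 14 and 12, and TUBB4B 10 and 11. TUBA1C reached 5 and 7 tags and TUBA1A 5 and 5. The 3 genes at the top, by the mean of the libraries, were ACTB (52.5 ± 47.4 tags, SD, n = 2), PFN1 (37 ± 8.49) and ACTG1, and their values overlapped. The values of TUBB4B, TUBA1B, TUBB and TMSB10 also overlapped from neighbour to neighbour. TUBB4B, at 10.5 ± 0.707 tags, and TUBA1C, at 6 ± 1.41 tags, were the only neighbours in this order whose values did not overlap or meet.

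Set against all sense peaks, the 86-tag peak of ACTB was among the 6 highest of 77288 in replicate 2. The 43-tag peak of PFN1 was among the 44 highest there, and its 31-tag peak among the 40 highest of 74237 in replicate 1. The 45.4 tags of ACTG1 were among the 37 highest in replicate 2, whereas its 11.5 tags in replicate 1 were exceeded or equalled by 1102 peaks, counting itself. The median height over the member peaks was 5 tags in replicate 1 and 8.78 in replicate 2, against 4 and 5 over all sense peaks. The median of the highest peak, over protein-coding genes with a peak, was 5 tags in replicate 1 and 6 in replicate 2, so TUBA1A and TUBA1C were close to a usual gene. The member peaks were also longer, and 79.0% and 55.8% had the shortest length of 51 nt, against 95.1% and 91.8% of all sense peaks.

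ACTB (ENSG00000075624.17, minus strand, RefSeq 5527148 to 5530601 of chromosome 7) encodes beta-actin. It had 6 sense peaks in replicate 1 and 5 in replicate 2. No peak of replicate 1 had any part of its length in CDS, and 3 lay wholly in the 3′ UTR. These were at 5527150 to 5527200 with 19 tags, at 5527350 to 5527450 with 8.5 tags and at 5527500 to 5527600 with 9 tags. In replicate 2, a single peak at 5527650 to 5527900 with 24.4 tags crossed from CDS (58% of its length) into the 3′ UTR (42%), and it was counted as CDS. So CDS was the main region of 0 of 6 peaks (95% Wilson interval to 39.0%) in replicate 1 and of 1 of 5 (3.62% to 62.4%) in replicate 2. The 3′ UTR was the main region of 3 of 6 (18.8% to 81.2%) and of 0 of 5 (to 43.4%). Introns were the main region of 3 of 6 (18.8% to 81.2%) and of 3 of 5 (23.1% to 88.2%). By number of listed peaks, introns thus equalled the 3′ UTR in replicate 1 and led in replicate 2. These counts include intron peaks outside the RefSeq interval, 2 in replicate 1 (4 tags each) and 1 in replicate 2 (5 tags). Inside the interval, the 3′ UTR held more peaks than introns in replicate 1, and introns still led in replicate 2. Counted in bases, peaks covered 0 nt of CDS and 253 nt of 3′ UTR in replicate 1, and 146 nt and 105 nt in replicate 2. Both libraries had peaks at the 3′ end of the transcript, but none of these peaks overlapped between them. Which of CDS and 3′ UTR held more, by peaks or by bases, changes with the library.

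At the 5′ end of ACTB, replicate 2 had the 86-tag peak, at 5530500 to 5530550, with 54% of its length in the 5′ UTR and 46% in an intron. Replicate 1 had no sense peak there. The only position shared by the libraries was in an intron, at 5530250 to 5530300, with 5 and 6 tags. The remaining peaks lay in introns with 4 to 8 tags, and 2 in replicate 1 and 1 in replicate 2 were upstream of the RefSeq start. Between 5527900 and 5530250, a stretch of 2350 nt, neither list had a sense peak. Over the RefSeq interval, the sense peaks of either list covered 18.8% of ACTB. On the opposite strand, 3 of 6 antisense peaks of replicate 1 (background 0.654% of all antisense peaks) and 3 of 4 of replicate 2 (background 0.821%) overlapped, all of them within the stretch without sense peaks.

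ACTG1 (ENSG00000184009.13, minus strand, 81509971 to 81512799 of chromosome 17) encodes gamma-actin, the other cytoplasmic actin. Its peaks lay along most of the gene, with a longest gap of 350 nt and 42.4% of the interval covered, and all 5 peaks of replicate 1 and all 9 of replicate 2 were exonic. CDS was the main region of 2 and 5 peaks, and peaks covered 178 nt of CDS in replicate 1 and 677 nt in replicate 2. The highest peak, 45.4 tags at 81511900 to 81512150, lay almost wholly in CDS and had no counterpart in replicate 1. Of the further peaks of replicate 2, 2 mainly in CDS had 23.7 tags (81511150 to 81511300) and 23.25 tags (81510650 to 81510850, which reached into the 3′ UTR). The libraries shared 3 positions. In CDS, the position 81511550 to 81511650 had 11.5 and 18.5 tags, a 3′ UTR peak at 81510550 to 81510600 had 7 and 13 tags, and a 5′ UTR peak from 81512500 had 4 and 5.5 tags. The 3′ UTR held 1 peak in replicate 1 and 3 in replicate 2.

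**Figure D1:**
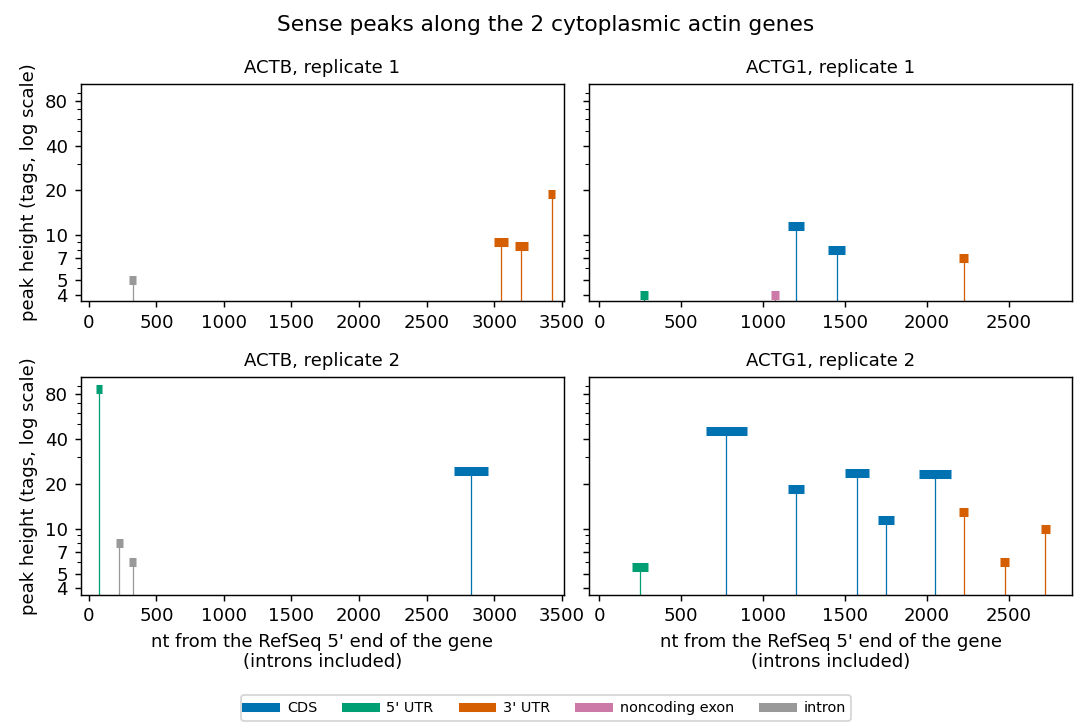
Sense peaks along ACTB (left) and ACTG1 (right) in replicate 1 (top) and replicate 2 (bottom); the horizontal axis is the distance in nt from the RefSeq 5′ end with introns included, the vertical axis is the height in tags (log scale), and bars show the extent of each peak. ACTB has peaks at both ends and a gap of 2350 nt between them, whereas ACTG1 has peaks along most of its length (peaks outside the RefSeq interval are not drawn).

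PFN1 (ENSG00000108518.8, minus strand, 4945652 to 4948530 of chromosome 17) encodes profilin 1. It had 4 peaks in replicate 1 and 5 in replicate 2. Its leading peak was at the same place in both libraries, 4948250 to 4948300, with 31 and 43 tags and 76% of its length in CDS and 24% in an intron. No other position shared by the libraries among the 10 genes was as high in either. An intron position at 4948050 to 4948100 was shared with 4 and 6 tags. The other CDS peaks were in a single library, with 8 tags at 4945950 to 4946000 in replicate 1, and 13.2 tags at 4946600 to 4946850 and 10 tags at 4948350 to 4948450 in replicate 2. PFN1 had no 3′ UTR peak in either list.

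CFL1 (ENSG00000172757.13, minus strand, 65854673 to 65858180 of chromosome 11) encodes cofilin 1. It had 9 peaks in replicate 1 and 5 in replicate 2. At 65855650 to 65855700, mainly in CDS, the peaks reached 8 and 26 tags, the largest ratio between the libraries (3.25) of all shared positions of these genes. In the 3′ UTR, replicate 2 had a single peak of 8.89 tags at 65854950 to 65855400, which overlapped 3 peaks of replicate 1 with 6.33, 6 and 4 tags. Replicate 1 had 2 CDS peaks of 7.5 and 4 tags and a noncoding exon peak of 7 tags between 65855900 and 65856200, where replicate 2 had none. A mainly intronic peak at 65858050 to 65858100, close to the start, was shared with 4 and 6 tags.

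TMSB10 (ENSG00000034510.6, plus strand, 84905656 to 84906671 of chromosome 2) encodes thymosin beta 10 and was the shortest gene. It had 3 peaks in replicate 1 and 2 in replicate 2. A peak of replicate 2 at 84906000 to 84906150 with 17.7 tags, mainly in CDS, overlapped 2 peaks of replicate 1, with 9 tags (mainly CDS) and 11 tags (mainly intron). The start peak with the sequence given above had 5 tags in replicate 1. No 3′ UTR peak was listed.

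The 3 alpha-tubulin genes lie near each other on chromosome 12 and differed in their peaks. TUBA1B (ENSG00000123416.15, minus strand, 49127782 to 49131395) had 7 and 6 peaks, all of them exonic, of which 5 and 6 lay mainly in CDS. Its highest peak began at 49129450 in both libraries, with 10 and 14.5 tags, and CDS peaks were shared at 49128650 (8 and 9 tags) and around 49129250 (6 and 8 tags). The main region of the highest peak was noncoding exon in replicate 1 and CDS, with 51% of its length, in replicate 2. TUBA1A (ENSG00000167552.15, minus strand, 49184795 to 49189080) had 1 peak in replicate 1, in the 5′ UTR, and 2 in replicate 2, in the 5′ UTR and in an intron, all of 5 tags and without overlap. It had no CDS peak in either list. TUBA1C (ENSG00000167553.16, plus strand, 49227926 to 49274600) had 6 peaks in replicate 1, 4 of them in introns, and 2 in replicate 2, and none overlapped. In replicate 2, the intron peak, at 49190600 to 49190650 with 5 tags, lay outside the RefSeq interval. The TUBA1C peaks mainly in CDS were in replicate 1 only, with 4 and 5 tags. Per kb of RefSeq gene with introns included, TUBA1B had 1.94 and 1.66 peaks, TUBA1A 0.233 and 0.467, and TUBA1C 0.129 and 0.0214.

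TUBB4B (ENSG00000188229.6, plus strand, 137241287 to 137243707 of chromosome 9) carried more peaks than any other of the 10 genes, with 13 and 10. It also had the most per kb of RefSeq gene, 5.37 and 4.13. Its peaks covered 57.8% of the gene, with a longest gap of 158 nt, and were of modest height, with medians of 5 and 7 tags. CDS was the main region of 8 and 6 peaks, and no peak touched the 3′ UTR in either list. In replicate 1, 8 of 13 peaks were overlapped by replicate 2, and in replicate 2, 6 of 10 by replicate 1. At 137241900 to 137241950, mainly in CDS, the heights were 10 and 11 tags, and at 137241400 to 137241450, mainly in an intron, 5 and 10 tags.

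TUBB (ENSG00000196230.14, plus strand, 30720352 to 30725422 of chromosome 6) had 8 and 6 peaks, all of them exonic. Its highest peak differed between the libraries. In replicate 1 it had 14 tags at 30722900 to 30722950, mainly in CDS and without overlap, and in replicate 2 it had 12 tags at 30724950 to 30725050, in the 3′ UTR and without overlap. The 3 shared positions were at the border of 5′ UTR and CDS (30720500 to 30720550, 5 tags in replicate 1 and 9 in replicate 2), and in CDS with 8.5 and 9 tags (from 30723600 in replicate 1) and with 6.33 and 10.5 tags (from 30724050). Peaks of replicate 2 covered 754 nt of CDS, the most of any of the 10 genes in either library, and those of replicate 1 covered 445 nt.

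**Figure D2:**
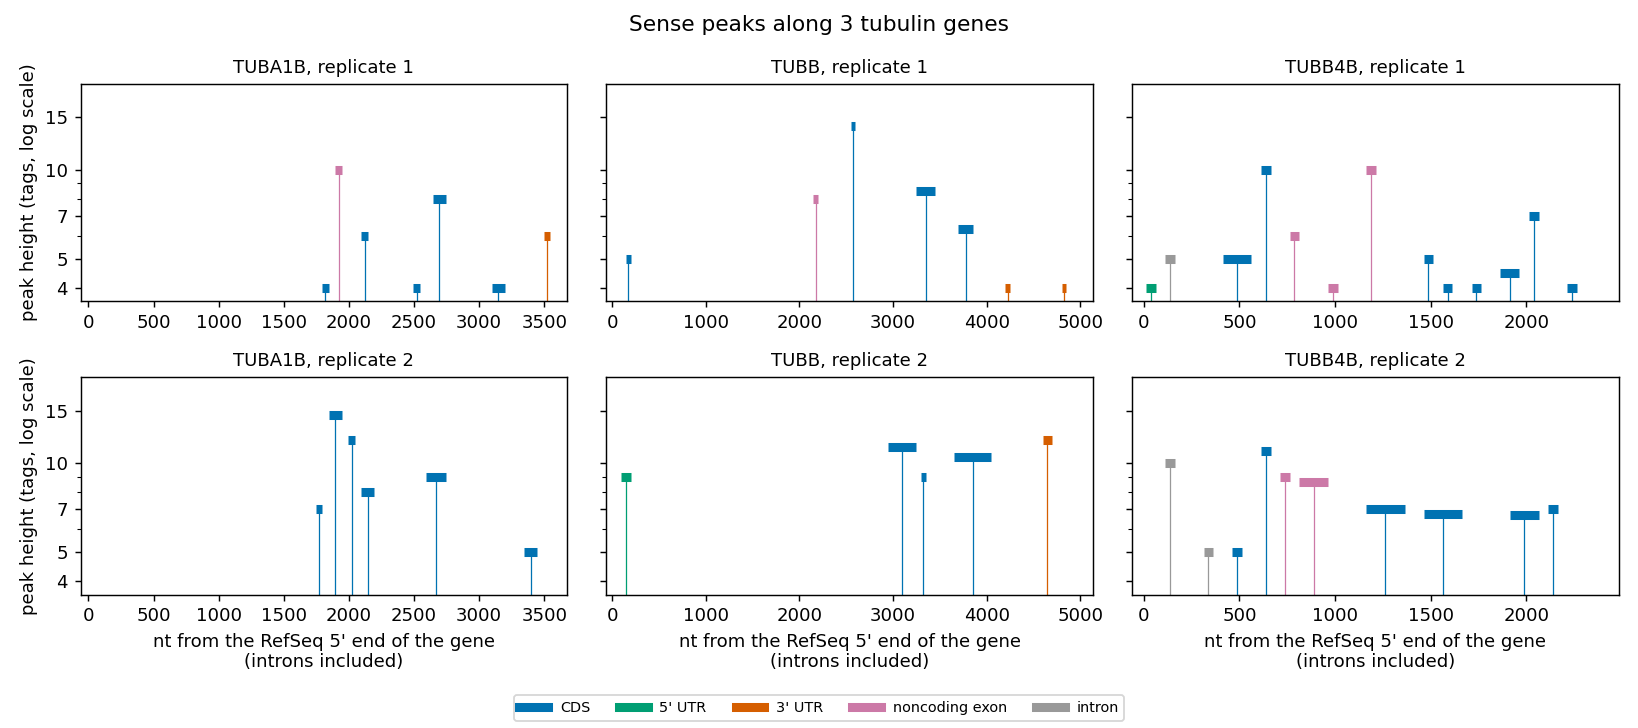
Sense peaks along TUBA1B, TUBB and TUBB4B in replicate 1 (top) and replicate 2 (bottom), drawn with the distance in nt from the RefSeq 5′ end on the horizontal axis and the height in tags (log scale) on the vertical axis. Heights stay between 4 and 14.5 tags. The peaks of TUBB4B run along most of the gene, with none in its last 158 nt, and none touches the 3′ UTR.

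Of the 62 member peaks of replicate 1, 27 (43.5%, 95% Wilson interval 31.9% to 55.9%) were overlapped by a sense peak of replicate 2, and 22 of 52 (42.3%, 29.9% to 55.8%) the other way. The background over all sense peaks was 16.6% and 15.8%. Among exonic peaks, 22 of 49 (44.9%, 31.9% to 58.7%) were overlapped in replicate 1 and 18 of 40 (45%, 30.7% to 60.2%) in replicate 2, against 38.1% and 30.3% of all exonic peaks. The first of these backgrounds lies within the interval and the other just below it. Among intron peaks of replicate 1 it was 5 of 13 (38.5%, 17.7% to 64.5%), against 7.11%. In replicate 2 it was 4 of 12 (33.3%, 13.8% to 60.9%), against 7.12%. Of the 5 in replicate 1, those of ACTB and PFN1 were wholly intronic. Those of TMSB10 and TUBB4B had 34% of their length in CDS, and that of CFL1 6%. Of the tall peaks, with 10 tags or more, 6 of 8 in replicate 1 had an overlap with the other list at any height (background 73.5%) and 9 of 21 in replicate 2 (42.9%, 24.5% to 63.5%, background 62.4%). The 86-tag peak of ACTB and the 45.4-tag peak of ACTG1 were among those of replicate 2 without overlap.

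Replicate 2 had the higher height at 24 of the 27 overlapping positions, was equal at 1 and lower at 2, and both of the latter were on TUBB4B. Each position is a peak of replicate 1. Together they overlapped 22 peaks of replicate 2, so some heights of replicate 2 were compared more than once. The background, over all 12357 overlapping sense peaks, was 77.9% higher in replicate 2, and the median ratio was 1.48 on these genes and 1.40 over all. At 6 of the 27 positions the height in replicate 1 was under 5 tags, the lowest of the other list, so the direction there is fixed by the lists. Of the other 21, 18 (85.7%) were higher in replicate 2, beside 68.3% of 8631 such positions over all sense peaks. In both sets, positions of exactly 5 tags in replicate 1 could be equal or higher in replicate 2 but not lower. More peaks were listed in replicate 1 for 7 of the 10 genes, beside a background of 40.9% of protein-coding genes with a sense peak. With the depth unknown, the height of a library cannot be told apart from its number of reads.

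Of 65 other cytoskeletal genes, 45 (69.2%) had a sense peak in both libraries, beside the background of 41.6%. Among other actins and actin regulators it was 33 of 46, and among other tubulins and tubulin partners 12 of 19. In all, 14 of the 65 genes had no sense peak that could be named in either library. Over all 20056 protein-coding genes, 11774 had such a peak in either library, and the rest had none. Of the 14 genes, 8 had a peak of some gene or strand in their interval. The other 6, without any peak, were ACTA1 and ACTC1, the skeletal and cardiac muscle actins, and the tubulins TUBA3C, TUBB2A, TUBB2B and TUBE1. The highest shared peaks were on TBCA, a tubulin folding cofactor (33 and 36 tags), CAPZB, a subunit of the protein that caps actin filaments (25 and 41 tags), and WDR1, which assists cofilin (23 and 36 tags). Those of TPM4, a tropomyosin (20.5 and 28.3 tags), and EVL, which promotes filament elongation (20 and 20.5 tags), followed. The peak of WDR1 lay mainly in an intron and the other 4 mainly in CDS. Of the 10 genes, only PFN1 had an overlapping position in this range in both libraries, and CDS was the main region of 32.3% and 37.2% of the peaks of the 65 genes, beside 43.5% and 50% for the 10. This difference was not tested.

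According to the methods, only uniquely mapped reads were kept and peaks overlapping input peaks were removed. The actins and the alpha-tubulins resemble each other closely in sequence and actin has many pseudogenes, so their reads may be divided or lost. The part of either step in the gap of ACTB and in the low peaks of TUBA1A and TUBA1C was not tested. Nor was it tested for the beta-tubulins or for the other cytoskeletal genes without any peak.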

How the data were processed

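RNA bound to IGF2BP2 in Jurkat cells was sequenced as 150 bp read pairs. The authors aligned reads with TopHat 2 (GRCh38, per the submitters' processing notes), kept unique reads, clustered them into peaks in each library on its own, kept peaks above 500 simulations per gene at a p-value under 0.05, and removed peaks overlapping input peaks. The deposited height is a signal in tags, not adjusted for depth, and the deposited p-value of a peak was used as a filter only. Heights times the number of bins were whole (within 0.01) in 100% of peaks. Regions and identifiers are the authors' own, with ties in the main region going to CDS first.

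The 10 genes were matched by Ensembl identifier, and other identifiers were named by position from RefSeq (14047 of 20428; at least 80% of CDS and UTR peaks in a single protein-coding gene, margin 1000 nt, or, without such peaks, all sense peaks in a single gene). Intervals were half-open, and overlap needed 1 bp on the same strand. Of the other cytoskeletal genes, the 5 with the highest overlapping peak were named, and 6 genes without a peak were named after their values were seen. For ACTB, the 3 genes with the nearest region shares were named. The genes and lists were chosen with earlier results of these data known. With 1 condition there was no contrast to test. Depth is unknown, no floor was set since the lists hold only peaks above a minimum, and the inputs were not analysed here. Alternatives changed the minimum height, the p threshold, the region rule, the overlap rule, the strand, or left out a library, and 1 more, peaks inside RefSeq genes only, was chosen after seeing the data. Motif counts under all peaks need a genome and were not done. Overlap and naming were tested on simulated data. Python 3.11.15, numpy 2.4.6, pandas 2.3.3 and scipy 1.17.1 were used.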

Additional observations from a re-analysis of the deposited data

Results flagged for a closer look

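Peaks on the strand opposite to ACTB lie outside the sense peaks described and reached 13 tags in replicate 1 and 9 tags in replicate 2. There were 6 in replicate 1 and 4 in replicate 2, and 3 positions were shared, at 5529150 to 5529200 (13 and 9 tags), from 5529250 (6 and 9 tags) and 5529500 to 5529600 (11 and 7 tags) of chromosome 7. These 3 positions lie inside the stretch of ACTB where neither list had a sense peak. In replicate 1 an antisense peak of 12 tags lay at 5530500 to 5530550, the position of the 86-tag sense peak of replicate 2. On the other 9 genes there were 5 and 4 antisense peaks of at most 6 tags, of which a single position, on ACTG1 (5 and 6 tags), was shared. Sources used here do not say how strand was assigned to the reads, and the part of this in the values was not tested.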

How the results depend on the processing

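All results are means of the 2 libraries unless stated. With a height of at least 10 tags, set in both lists before the overlap was taken, the sense peaks fell from 57 to 14.5, the CDS share was 63.1%, the ACTB peaks mainly in the 3′ UTR were 0.5, the overlap of replicate 1 was 62.5%, and 17 of the 65 cytoskeletal genes passed in each library (45 without a minimum). With a p-value under 0.001 these were 27 peaks, 58.3%, 1 peak, 56.5% and 26 genes. No share over all protein-coding genes is given at this p-value. The CDS share was 53.5% by bases and 60.1% among exonic peaks only, and the overlap was 60% at 5 tags or more, where the peaks of 4 tags of replicate 1 drop out. Leaving out a library gave 52 to 62 peaks, 43.5% to 50% in CDS, 0 to 1 ACTB peaks in CDS and 0 to 3 in the 3′ UTR, so neither ACTB value holds in both libraries. Peaks inside the RefSeq genes only, chosen after seeing the data, gave 52.5 peaks, 50.9% in CDS and 46.6% overlap. The causes were not tested. In all, 16 recomputed main values moved by more than 1 SD, 1.5 times (counts) or the Wilson interval (overlap), and 29 did not. With 2 libraries, leaving out either cannot move the CDS share by more than 1 SD. For that share, these values were thus bound to count as not moved. Leaving out a library moved the highest peak of ACTB (19 to 86 tags), ACTG1 (11.5 to 45.4) and CFL1 (8 to 26), and of no other gene. No paired analysis was possible because the iRIP libraries form a single group, and libraries sharing their replicate numbers, the inputs, were not used here. Depth is unknown, so no smallest detectable height can be given.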

Other observations

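The 3 protein-coding genes nearest to ACTB in the division of their sense peaks over CDS, UTRs, noncoding exons and introns, of 2739 genes with at least 5 sense peaks in each list, were KPNA6, ZNF451 and ENAH. The likeness is the sum of the absolute differences of these shares, averaged over the libraries, and was 0.3 for KPNA6 and 0.367 for both others. KPNA6, a nuclear import adaptor, had 0 CDS, 2 3′ UTR and 3 intron peaks in replicate 1, and 3, 1 and 6 in replicate 2. ENAH, an actin regulator, had 1, 1 and 3 in replicate 1, and 1 CDS, 1 5′ UTR and 4 intron peaks in replicate 2. The highest peaks of these 3 genes had at most 5 tags in replicate 1 and 8 in replicate 2, beside the 19 and 86 tags of ACTB. With 6 and 5 peaks in the ACTB lists, a single peak moves these shares.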
